A study of Sus scrofa with 15 samples.

Results

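CHI3L2, CRTAC1, LOXL4, PLA2G2D and ENSSSCG00000036445 were 5 of the 31908 genes counted in piglet liver RNA. They were chosen because their level in each of the 3 LPS libraries lay well above their level in each of the 3 control libraries. Their differences between the groups are therefore given as a description, with no test. All 5 were among the 12774 genes that passed a filter on low counts, and CHI3L2, CRTAC1 and ENSSSCG00000036445 could pass it only through the LPS libraries.

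The animals were growing male piglets of a Duroc x Large White x Landrace cross. The LPS group had an intraperitoneal injection of lipopolysaccharide, the outer-membrane endotoxin of Gram-negative bacteria, at 80 µg/kg, and the CON group had sterile saline. Livers were taken 4 h later. The values are from the input RNA of an m6A experiment, which is fragmented polyadenylated RNA of whole liver that was not immunoprecipitated, with 3 libraries in each group. Levels are in CPM, counts per 1000000 counts of the library, after scaling of the libraries by the TMM method.

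The genes code for secreted or extracellular proteins of different families. CHI3L2 is a chitinase-like protein that binds chitin-type sugars but lacks chitinase activity, and it was first described in cartilage cells. CRTAC1 is cartilage acidic protein 1, a glycosylated matrix protein. LOXL4 belongs to the lysyl oxidases, copper-dependent enzymes that crosslink collagen and elastin. PLA2G2D is a secreted phospholipase A2, an enzyme that releases fatty acids from phospholipids, and is known from dendritic cells of lymphoid tissue. During the response to endotoxin the liver also makes acute-phase proteins and receives neutrophils from the blood. In RNA of whole liver, more cells of a type and more RNA per cell cannot be told apart.

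ENSSSCG00000036445 has no symbol in the name table used here. Its span overlapped that of CXCL13 in the RefSeq annotation of assembly Sscrofa11.1 by 99.4% in both directions. Of 13830 symbols found once in both tables, 98.9% lay at overlapping positions, so the coordinates of the 2 annotations correspond. CXCL13 is the chemokine that draws B cells through the receptor CXCR5. The identifier is kept below because the name rests on position alone.

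The LPS libraries did not respond alike, and total counts ranged from 4348478 to 19967417 over the 6 libraries. Of 10 genes known to respond to LPS that were listed for comparison, 7 were tested, and LPS replicate 2 was the lowest LPS library in 7 of them. CXCL2, a neutrophil chemokine, measured 56.0, 1.47 and 136 CPM in LPS replicates 1 to 3 against 2.19 to 4.94 CPM in CON. SOCS3, an inhibitor of cytokine signalling, measured 289, 18.8 and 627 CPM in the LPS libraries against 17.5 to 45.1 CPM in CON. For these 2 genes the library labelled LPS replicate 2 lay at the level of the CON libraries. Fold changes of the 5 genes, their spread among LPS libraries and the calls of each gene list are therefore also given without this library.

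By TMM-scaled point values LOXL4 was the most even of the 5 genes. It measured 5.18, 4.69 and 7.91 CPM in CON replicates 1 to 3 and 30.5, 29.1 and 30.0 CPM in LPS replicates 1 to 3. Its mean was 5.93 ± 1.74 CPM (SD, n = 3) in CON and 29.9 ± 0.714 CPM (SD, n = 3) in LPS, a log2 fold change of 2.33. The 95% counting intervals of the 3 LPS libraries (exact Poisson, counting error only) overlapped one another, the lowest bound being 25.0 CPM and the highest 36.0 CPM. CON replicate 3 was the highest control, and without it the ratio of the lowest LPS value to the highest CON value went from 3.68 to 5.62. Without LPS replicate 2 the log2 fold change was 2.35.

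CRTAC1 was even as well, but at few counts. The CON libraries held 2, 1 and 1 counts and the LPS libraries 13, 20 and 49 counts. These were 0.179, 0.156 and 0.0989 CPM in CON and 2.83, 3.27 and 3.35 CPM in LPS. Over the summed counts of each group the LPS level was 22.4 times the CON level, with an exact 95% counting interval of 8.43 to 84.2. The 3 LPS intervals overlapped, and that of LPS replicate 1 alone ran from 1.51 to 4.85 CPM, so differences of that size among LPS libraries were not detectable at this depth. The fitted log2 fold change was 4.33, and 4.31 without LPS replicate 2.

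PLA2G2D had the highest level of the 5 in both groups. It measured 5.09, 5.16 and 14.8 CPM in CON and 74.4, 77.7 and 142 CPM in LPS. LPS replicate 3 stood above the other LPS libraries, whose counting intervals overlapped each other but not that of LPS replicate 3. CON replicate 3 stood above the other controls in the same way. The means were 8.36 ± 5.60 CPM in CON and 98.0 ± 38.1 CPM in LPS (SD, n = 3 each), and the log2 fold change was 3.54. It was 4.28 without CON replicate 3, when the ratio of the lowest LPS to the highest CON value rose from 5.01 to 14.4, and 3.69 without LPS replicate 2.

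CHI3L2 was close to absent in the control livers. The CON libraries held 1, 0 and 1 counts, of which the count of 0 in CON replicate 2 allows up to 0.469 CPM. The LPS libraries gave 16.4, 4.25 and 16.5 CPM. LPS replicate 2 lay 3.88-fold below LPS replicate 3, and its counting interval of 2.78 to 6.23 CPM did not reach those of the other LPS libraries. CHI3L2 thus followed the comparison genes in being lowest in that library. The value there was 43.0 times the highest control value, which is 1 count, and 9.08 times the floor of CON replicate 2. Without LPS replicate 2 the first ratio was 165 and the fitted log2 fold change 7.60, against 7.18 with it.

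ENSSSCG00000036445 was also near 0 in control livers, with 1, 0 and 0 counts. The counts of 0 allow up to 0.469 CPM in CON replicate 2 and 0.297 CPM in CON replicate 3. The LPS libraries held 17, 68 and 134 counts, which were 3.71, 11.1 and 9.15 CPM. Here LPS replicate 2, the lowest LPS library for CHI3L2, was the highest, and LPS replicate 1 was the lowest. The interval of LPS replicate 1, 2.16 to 5.93 CPM, lay below those of the other LPS libraries. Over summed counts the LPS level was 239 times the CON level, with a counting interval of 42.5 to 9497 that rests on the single control count. The ratio of the lowest LPS to the highest CON value was 41.5, and 102 without LPS replicate 1. It was 7.91 against the floor of CON replicate 2. The fitted log2 fold change of 7.34 became 9.08 without CON replicate 1, the only control library with a count, and 7.08 without LPS replicate 2. CXCR5, looked up after the match by position was seen, did not pass the filter on low counts, with 0.804 to 1.88 CPM in CON and 0.982 to 1.09 CPM in LPS.

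**Figure D1:**
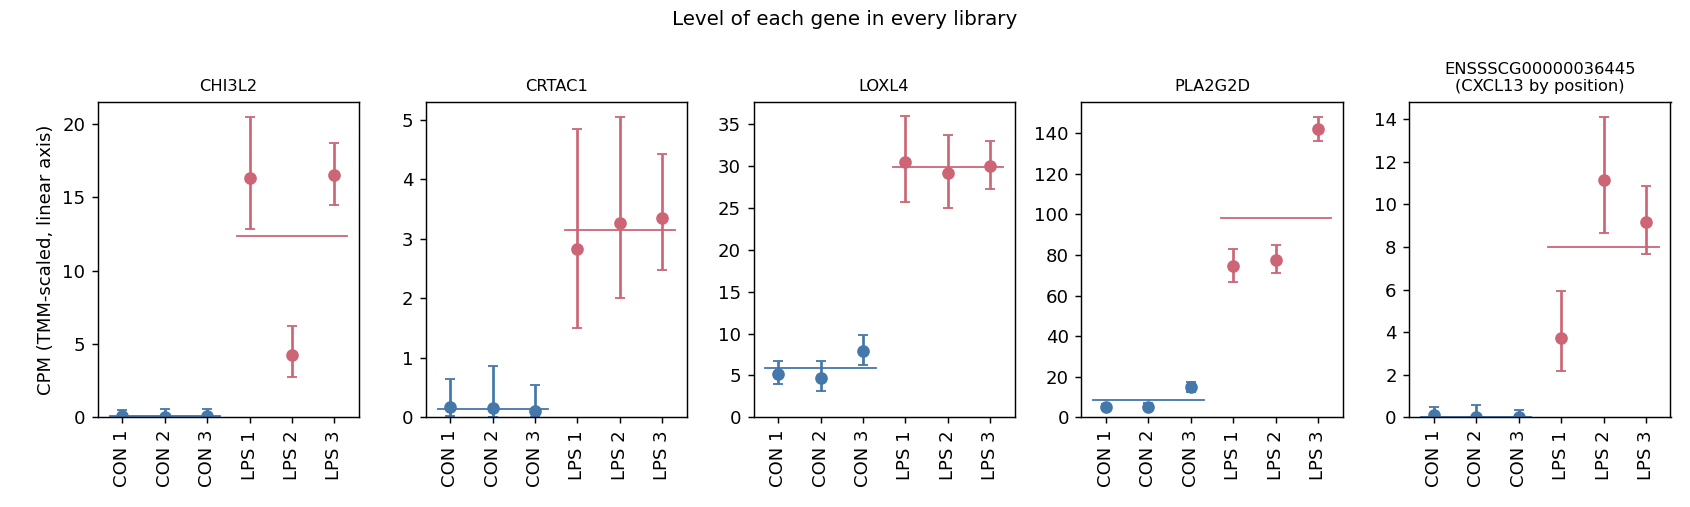
Each panel plots 1 gene's level in CPM (linear axis from 0) in the 3 CON (blue) and 3 LPS (red) libraries, with horizontal lines at the group means and bars for exact 95% Poisson counting intervals. LOXL4 lies between 29.1 and 30.5 CPM in the LPS libraries, CHI3L2 drops to 4.25 CPM in LPS replicate 2, and ENSSSCG00000036445 drops to 3.71 CPM in LPS replicate 1.

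The 5 genes were thus not equally even. The ratio of the highest to the lowest LPS value was 1.05 for LOXL4, 1.18 for CRTAC1, 1.91 for PLA2G2D, 3.0 for ENSSSCG00000036445 and 3.88 for CHI3L2. The median of this ratio over the 12774 tested genes was 2.04. LOXL4, CRTAC1 and PLA2G2D lay below that median, and the share of tested genes with a smaller ratio was 0.384% for LOXL4, 4.39% for CRTAC1 and 44.3% for PLA2G2D. ENSSSCG00000036445 and CHI3L2 varied more than the median gene, with 73.3% and 82.7% of tested genes below them. Over the other tested genes in which all LPS values exceeded all CON values, the median ratio was 1.64. LOXL4 and CRTAC1 lay below this second median and PLA2G2D above it. Between LPS replicates 1 and 3 alone, the ratio was 1.01 for CHI3L2, 1.02 for LOXL4, 1.18 for CRTAC1, 1.91 for PLA2G2D and 2.47 for ENSSSCG00000036445, beside a median of 1.54 over the tested genes. The uneven values of CHI3L2 thus rest on LPS replicate 2. Those of ENSSSCG00000036445 rest on LPS replicate 1, without which its ratio was 1.22, and PLA2G2D had a ratio of 1.05 without LPS replicate 3. Over all 3 LPS libraries and with TMM scaling, the description of these genes as raised evenly was met by LOXL4 and not by CHI3L2 and ENSSSCG00000036445. The evenness under other scalings was not examined. TMM factors ran from 0.735 to 1.11 over the libraries, a wider range than that of the LPS values of LOXL4. Its ratio of 1.05 therefore depends on this scaling. With total counts the lowest LPS value of LOXL4 was 2.85 times its highest CON value, against 3.68 times with TMM. The point values of CRTAC1 were even, at a depth that could not show smaller differences. For both LOXL4 and CRTAC1 the counting intervals of the 3 LPS libraries overlapped, so the order of these genes in evenness is not resolved.

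**Figure D2:**
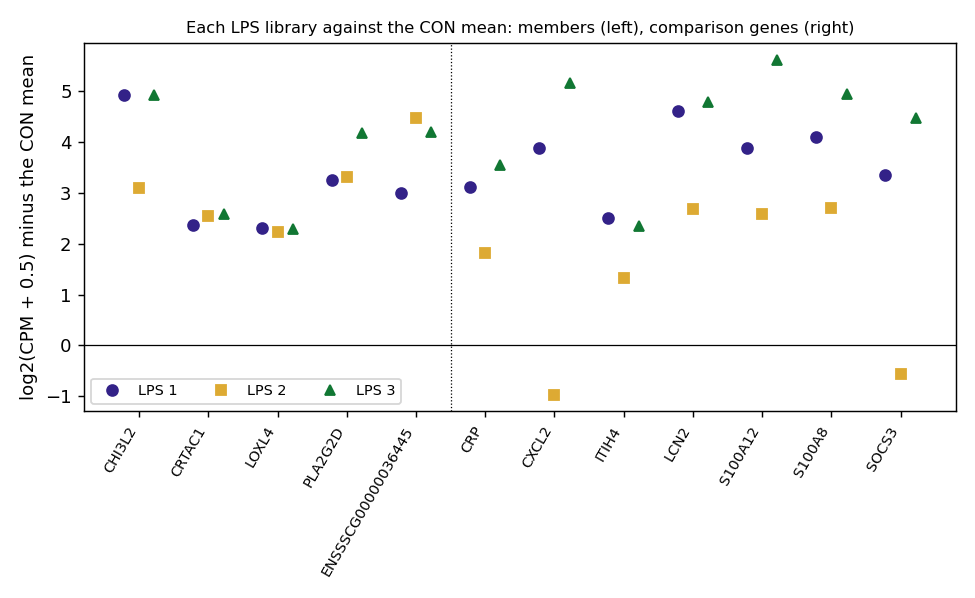
The vertical axis is log2(CPM + 0.5) in each LPS library minus the mean of the 3 CON libraries, for the 5 genes (left of the dotted line) and 7 comparison genes (right), with LPS replicates 1, 2 and 3 as circles, squares and triangles. LPS replicate 2 is the lowest LPS library for 7 of 7 comparison genes and for 2 of the 5 genes on the left.

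The comparison genes spread further among the LPS libraries than LOXL4, CRTAC1 and PLA2G2D. CHI3L2 at 3.88 and ENSSSCG00000036445 at 3.0 lay within the range of the comparison genes. The highest-to-lowest LPS ratio was 2.27 for ITIH4 and 3.32 for CRP, which are acute-phase proteins of hepatocytes. It was 4.37 for LCN2, 5.06 for S100A8 and 8.35 for S100A12, which were listed here as neutrophil markers, and 33.3 for SOCS3 and 92.5 for CXCL2. LPS replicate 2 was lowest for 2 of the 5 chosen genes, CHI3L2 and LOXL4, and for LOXL4 the 3 values were within counting error of one another. These ratios are a description of 3 libraries, and their difference between the gene groups was not tested.

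In 833 of the 12774 tested genes, or 6.52%, the lowest LPS value exceeded the highest CON value, as it did in 5 of 5 of the chosen genes by the rule. In the other direction, 9.8% of tested genes had all LPS values below all CON values. On the ratio of the lowest LPS to the highest CON value, CHI3L2 ranked 2, ENSSSCG00000036445 ranked 3, CRTAC1 ranked 5, PLA2G2D ranked 18 and LOXL4 ranked 28. The ranks of CHI3L2 and ENSSSCG00000036445 rest on a highest control value of 1 count. Against the floor of CON replicate 2 their ratios were 9.08 and 7.91, below the 15.9 of CRTAC1. The choice was therefore not the top of that list, since 23 other genes had a ratio at or above that of LOXL4. In those 23 genes the median highest-to-lowest LPS ratio was 4.63, and LPS replicate 2 was the lowest LPS library in 20. Among genes with a symbol, the nearest above LOXL4, whose ratio was 3.68, were ADGRG3 at 3.71, HTRA3 at 3.79, PGA5 at 3.97, IL1R2 at 4.14 and KLHL30 at 4.19. The nearest below were PTPRN at 3.64, SOD2 at 3.63, S100A12 at 3.47, PLAT at 3.22 and PCP4L1 at 3.11. Among these 10 neighbours in the ranking the highest-to-lowest LPS ratio ran from 1.34 for ADGRG3 to 43.1 for PGA5.

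**Figure D3:**
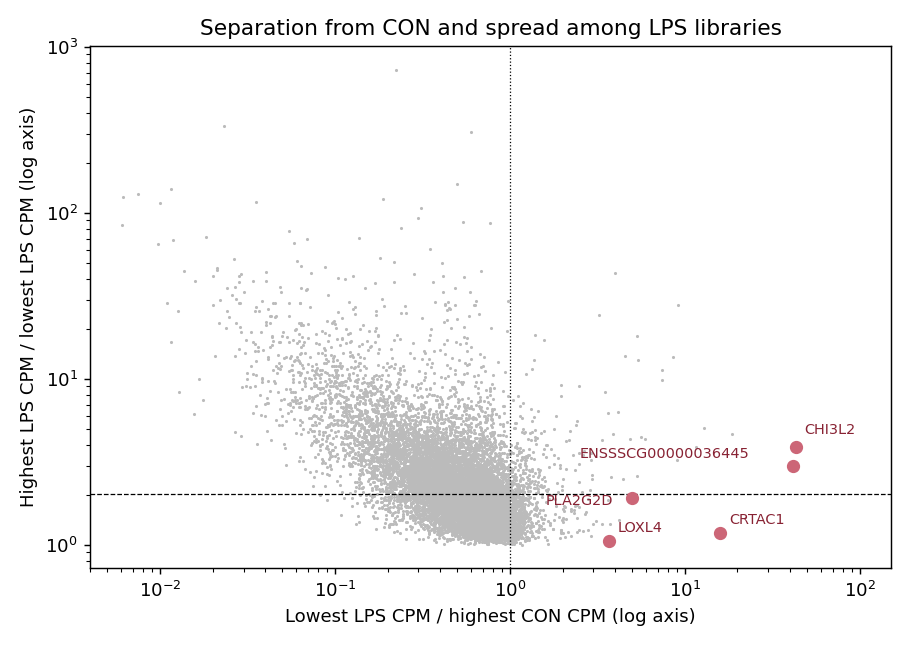
Each grey point is a tested gene, with the lowest LPS CPM over the highest CON CPM on the horizontal axis and the highest over the lowest LPS CPM on the vertical axis (both log axes; genes for which either ratio is 0 or divides by 0 are not drawn). The dashed line is the median spread of 2.04, the dotted line marks a separation of 1, and the 5 red points lie right of it at 3.68 or more, with LOXL4 at the bottom of the plot and CHI3L2 above the dashed line.

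Levels of different genes were compared per kb of exon. In the LPS livers PLA2G2D was highest with 71.5 CPM per kb, followed by LOXL4 with 8.69, ENSSSCG00000036445 with 6.84, CHI3L2 with 6.21 and CRTAC1 with 0.282 CPM per kb. PLA2G2D lay above 95.6% of tested genes on this scale and LOXL4 above 71.0%, while CRTAC1 lay above 4.63%. The LPS libraries of ENSSSCG00000036445 spanned 3.17 to 9.52 CPM per kb, a range that held all LOXL4 values and overlapped that of CHI3L2, so the order of LOXL4, ENSSSCG00000036445 and CHI3L2 is within the spread. In CON livers PLA2G2D at 6.10 and LOXL4 at 1.72 CPM per kb were again the highest. CHI3L2, ENSSSCG00000036445 and CRTAC1 were then at 0.0315, 0.0255 and 0.0130 CPM per kb, levels that rest on 4 or fewer counts each over the 3 libraries.

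Each gene was then set beside its family. A call needed an adjusted p (Benjamini-Hochberg, edgeR's quasi-likelihood test) below 0.05 together with a fold change above 1.5, which was reached by 0.0548% of tested genes for higher and 0% for lower levels in LPS. At an unadjusted p below 0.05 the shares were 6.18% higher and 6.33% lower. DESeq2 called 2.02% higher and 1.15% lower, and edgeR without LPS replicate 2 called 3.76% higher and 3.45% lower. The median log2 fold change over all tested genes was 0.01.

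Of the lysyl oxidase family, all 4 genes other than LOXL4 were tested and 0 were called. At an unadjusted p below 0.05, LOXL2 and LOX were higher. LOXL2, which also crosslinks collagen, measured 1.34, 5.94 and 3.36 CPM in CON and 16.6, 10.1 and 20.3 CPM in LPS. The groups of LOXL2 did not overlap, and its log2 fold change was 2.18 ± 0.54 (SE; edgeR adjusted p = 0.180). LOX, the founding member of the family, measured 4.11, 6.56 and 3.86 CPM in CON and 6.54, 11.6 and 15.7 CPM in LPS. The groups of LOX overlapped, with LPS replicate 1 at the level of CON replicate 2, and the log2 fold change was 1.24 ± 0.43 (edgeR adjusted p = 0.282). LOXL3 and LOXL1 had log2 fold changes of 0.31 and 0.09, and that of LOXL1 turned negative under 4 of the alternatives. The median of the 4 genes was 0.78. LOXL2 was called by DESeq2 (adjusted p = 0.00567) and by edgeR without LPS replicate 2 (log2 fold change 2.42, adjusted p = 0.0219), and limma-voom called 0 of the 4. The summed level of the 4 genes was 15.01 to 18.7 CPM in CON and 32.7 to 41.9 CPM in LPS, so it did not overlap either. The LPS spread of LOX was larger than that of LOXL4, from 6.54 to 15.7 CPM against 29.1 to 30.5 CPM.

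The chitinase-like family, the proteins with a glycoside hydrolase family 18 fold, was examined through 6 genes besides CHI3L2. Only CHID1, a lysosomal protein with a chitinase domain, passed the filter. CHID1 measured 57.2 to 79.1 CPM in CON and 48.4 to 61.4 CPM in LPS, with a log2 fold change of -0.36 ± 0.29 (edgeR adjusted p = 0.657). CHI3L1, a close relative of CHI3L2 and a macrophage and neutrophil product, held 1, 0 and 2 counts in CON and 0, 3 and 4 counts in LPS. CHIT1, the chitinase of macrophages, held 0, 0 and 2 counts in CON and 1, 2 and 0 counts in LPS. CHIA, the acidic chitinase of stomach and lung, held 1 count in each CON library and 3, 0 and 0 counts in LPS. CTBS and OVGP1 were at 0 counts in all 6 libraries. The rise in CHI3L2 was thus not seen in a relative that these libraries could measure, and the relatives at or near 0 counts give no fold change.

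Of the phospholipase A2 genes, 15 were found besides PLA2G2D and 7 were tested, of which 0 were called by edgeR, DESeq2 or limma-voom. The median log2 fold change of the tested genes was -0.29. They include the phospholipase A2 receptor, which is not itself an enzyme, and the median is its value. PLAAT3, a phospholipase of adipose tissue and the only one with an unadjusted p below 0.05, measured 31.2, 23.7 and 36.0 CPM in CON and 51.9, 40.4 and 54.6 CPM in LPS. Its groups did not overlap, but the log2 fold change of 0.69 ± 0.30 did not pass the adjusted test (edgeR adjusted p = 0.387). PLA2G12B, a catalytically inactive relative of hepatocytes with a role in lipoprotein secretion, measured 64.1, 70.8 and 45.3 CPM in CON and 15.05, 51.7 and 9.42 CPM in LPS. Its log2 fold change was -1.25 ± 0.57 (edgeR adjusted p = 0.414). Leaving out LPS replicate 2 moved it to -2.31, a call (edgeR adjusted p = 0.00793). PLA2G7, the plasma platelet-activating-factor hydrolase, and PLA2G6, a calcium-independent enzyme, had log2 fold changes of -0.45 and -0.32.

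The other secreted enzymes of the PLA2G2D type were at or near 0. PLA2G2A was at 0 counts in all 6 libraries, and PLA2G2E held 1 count in all. PLA2G2F held 0, 1 and 0 counts in CON and 5, 1 and 9 counts in LPS. PLA2G5 held 0 counts in each CON library and 0, 1 and 56 counts in LPS replicates 1 to 3, so that nearly all its counts came from LPS replicate 3, the library in which PLA2G2D was also highest. PLA2G2D was therefore the only secreted enzyme of group 2 among those found that passed the filter.

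**Figure D4:**
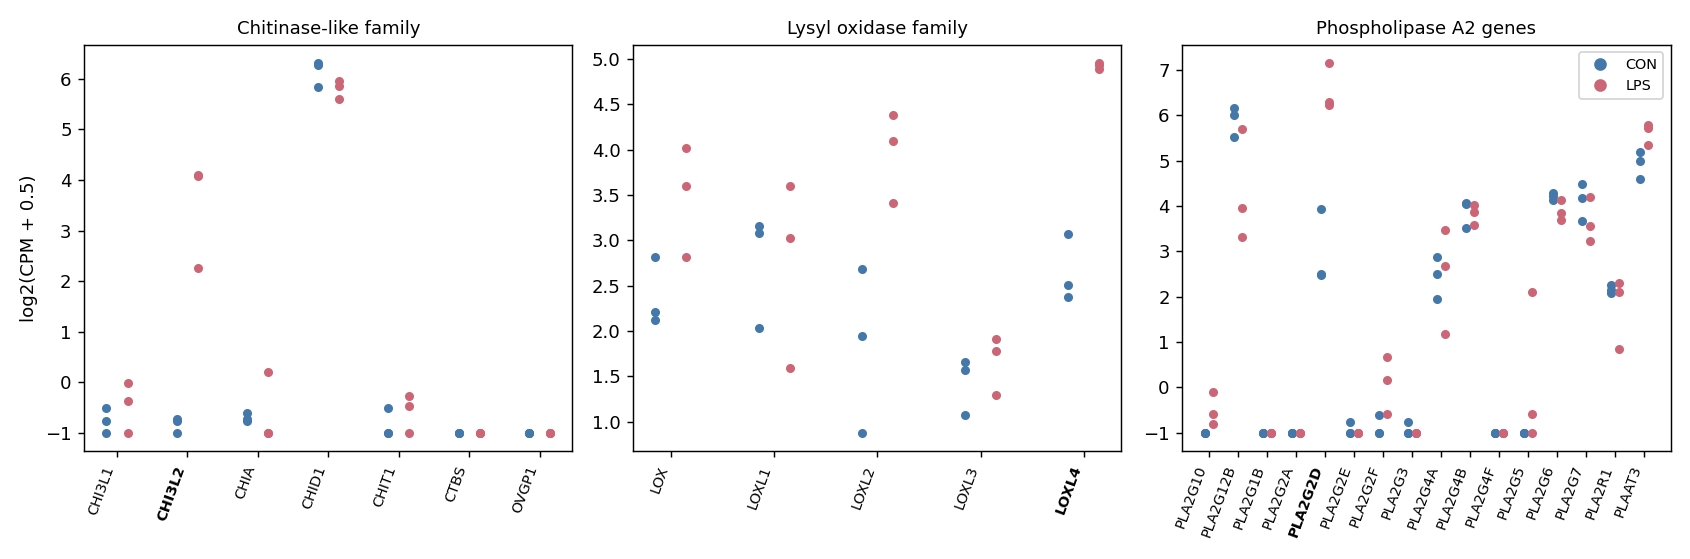
The vertical axes are log2(CPM + 0.5) for the genes found of 3 families, with CON libraries in blue and LPS libraries in red, and the chosen genes in bold. Each gene is to be read against itself, since values are not divided by length; points at -1 are libraries with 0 counts, and CHI3L2, LOXL4 and PLA2G2D are the genes whose groups stand furthest apart.

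LOXL4 and CRTAC1 code for proteins of the extracellular matrix, so a list of 37 matrix genes was examined. Of these, 36 were tested and 0 were called by edgeR, with a median log2 fold change of -0.19. At an unadjusted p below 0.05, 4 were higher and 1 was lower, and DESeq2 called 3 higher and 0 lower and limma-voom 0. TNC, a matrix glycoprotein of injured tissue, measured 4.05 to 4.22 CPM in CON and 108, 31.2 and 309 CPM in LPS, with a log2 fold change of 5.18 ± 0.78 (edgeR adjusted p = 0.0661). THBS1, thrombospondin 1, had a log2 fold change of 2.66 ± 0.75 (edgeR adjusted p = 0.221). Without LPS replicate 2 both were called, at 5.66 for TNC and 3.14 for THBS1, and NID1 was called lower at -1.52. Without LPS replicate 3 the log2 fold change of THBS1 was 1.21. NID1, a basement membrane linker, had a log2 fold change of -1.13 ± 0.41 (edgeR adjusted p = 0.312), and COL15A1, a basement membrane collagen, one of -1.65 ± 0.76 (edgeR adjusted p = 0.418). TNC varied 9.89-fold among the LPS libraries, where LOXL4 varied 1.05-fold.

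The genes lie on 4 chromosomes, with coordinates as in the deposited table, for which the sources used here name no pig genome build. CHI3L2 spans chromosome 4, 109081437 to 109099098, minus strand, with 1994 exon bases. CRTAC1 spans chromosome 14, 109219683 to 109390692, minus strand, with 11163 exon bases. LOXL4 spans chromosome 14, 109571945 to 109589160, minus strand, with 3439 exon bases. CRTAC1 and LOXL4 are therefore on the same strand 181 kb apart, with 1 gene between them. PLA2G2D spans chromosome 6, 78391062 to 78397514, minus strand, with 1370 exon bases, and ENSSSCG00000036445 spans chromosome 8, 73071295 to 73077340, plus strand, with 1168 exon bases.

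The genes around them were mostly low or not called. ENSSSCG00000010531, the gene between CRTAC1 and LOXL4 on the opposite strand and 2.60 kb from LOXL4, measured 9.65, 6.87 and 7.32 CPM in CON and 25.3, 8.34 and 50.0 CPM in LPS. It had a log2 fold change of 1.81 ± 0.56 (edgeR adjusted p = 0.247), and 1.09 without LPS replicate 3. Its groups overlapped, since LPS replicate 2 lay below CON replicate 1, whereas LOXL4 stood at 29.1 CPM in that library. ZFYVE27, the nearest gene on the other side of CRTAC1, had a log2 fold change of 0.90 ± 0.37 (edgeR adjusted p = 0.367). The nearest genes of CHI3L2, ENSSSCG00000036445 and PLA2G2D did not pass the filter.

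For CRTAC1 an overlap bears on its few counts. GOLGA7B lies on the opposite strand over its end and shares 1865 exon bases with it, and the sources used here do not say whether reads were counted by strand. GOLGA7B held 6, 0 and 6 counts in CON and 2, 1 and 2 counts in LPS, so its counts were not higher in the libraries in which CRTAC1 was higher. Reads from the shared bases cannot be assigned to one of the 2 genes if strand was not used. PLA2G5 spans PLA2G2D on the opposite strand but shares 0 exon bases with it, and GOLGA7B was the only overlapping gene that shared exon bases with any of the 5.

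The genes most like each of the 5 over the 6 libraries were found by Pearson's r of log2(CPM + 0.5), as a description. For CHI3L2 they were S100A8 (r = 0.993), LCN2 (r = 0.991) and COX17 (r = 0.990), and LPS replicate 2 was the lowest LPS library in each of them, as in CHI3L2. The choice by r favours genes with that low value, so it is no separate result. S100A8 and LCN2 were listed here as neutrophil markers, though RNA of whole liver does not show which cells made them. COX17 is a mitochondrial copper chaperone, and 66 genes with a symbol reached an r of 0.95 with CHI3L2. For LOXL4 they were MTMR7 (r = 0.995), TRMT44 (r = 0.994) and ADAMTS15 (r = 0.991). For PLA2G2D they were LNX2 (r = 0.991), PARM1 (r = 0.991) and NFE2 (r = 0.991). For CRTAC1 they were LAMA3 (r = 0.983), MAP2K1 (r = 0.982) and MTMR7 (r = 0.981), and for ENSSSCG00000036445 they were LAMA3 (r = 0.994), CAVIN1 (r = 0.984) and CRTAC1 (r = 0.983). MTMR7 measured 3.12 to 4.15 CPM in CON and 11.6 to 14.2 CPM in LPS. LAMA3, a laminin chain, was highest in LPS replicate 2, at 33.5 CPM against 23.5 and 29.7 CPM in the other LPS libraries. Between the chosen genes r ranged from 0.897, for CHI3L2 with ENSSSCG00000036445, to 0.984, for LOXL4 with PLA2G2D. All these values rest on 6 libraries in 2 groups, and a gene that differs between the groups reaches a high r for that reason alone.

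Markers of cell types in liver were counted beside these genes. Of 14 neutrophil markers found, 11 were tested and S100A8 and LCN2 were called higher (edgeR adjusted p = 0.0371 and 0.0379), with 6 higher at an unadjusted p below 0.05. DESeq2 called 5 higher, limma-voom 0, and edgeR without LPS replicate 2 called 7. Neither was called when CON replicate 1, 2 or 3 or LPS replicate 1 was left out, with log2 fold changes then of 5.28 to 5.45 for S100A8 and 4.18 to 4.55 for LCN2. The summed level of the neutrophil markers was 67.0 to 114 CPM in CON and 194 to 525 CPM in LPS. S100A9, a listed neutrophil marker, was not found by symbol and is not in these counts. By position it matches ENSSSCG00000006588, which measured 0.593 to 1.34 CPM in CON and 39.5, 12.1 and 35.6 CPM in LPS (edgeR adjusted p = 0.0326). Dendritic cell markers, the cell type PLA2G2D is known from, summed to 98.9 to 130 CPM in CON and 130.4 to 623 CPM in LPS, with 0 of 7 called by edgeR, 2 higher at an unadjusted p below 0.05 and 2 called higher by DESeq2. These 2 were BATF3 (log2 fold change 3.59 ± 0.70, edgeR adjusted p = 0.100) and CCR7 (2.28 ± 0.73, edgeR adjusted p = 0.263), while the median of the 7 was -0.63. Both were called without LPS replicate 2. The rise in the sum was that of BATF3, since the other 6 markers summed to 79.6 to 101 CPM in CON and 49.9 to 100.3 CPM in LPS. Of 13 Kupffer cell or macrophage markers 0 were called, 13 had a negative log2 fold change and 5 were lower at an unadjusted p below 0.05, and they summed to 2087 to 3373 CPM in CON and 1387 to 2365 CPM in LPS. Of 6 cholangiocyte markers 0 were called and 3 were higher at an unadjusted p below 0.05, and they summed to 26.7 to 40.6 CPM in CON and 41.6 to 123 CPM in LPS. DESeq2 called 1 Kupffer cell or macrophage marker lower and 1 cholangiocyte marker higher, and edgeR without LPS replicate 2 called 3 and 1 in the same directions. The part of these cell types in the levels of the 5 genes was not tested.

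The remaining lists had 0 called genes in edgeR and in DESeq2. Without LPS replicate 2, edgeR called 2 endothelial markers and 1 T or NK cell marker lower and none of the others. Summed levels in CON and LPS were 1073 to 1464 and 878 to 1692 CPM for stellate cells or fibroblasts, and 263 to 579 and 217 to 368 CPM for endothelial cells. They were 137 to 173 and 69.8 to 159 CPM for T or NK cells. They were 23.4 to 102 and 17.2 to 42.0 CPM for B or plasma cells, the cells that CXCL13 draws. Hepatocyte markers, by far the most abundant, summed to 48734 to 62028 CPM in CON and 29179 to 60156 CPM in LPS, which fits the labelled tissue. Of these lists, stellate cells or fibroblasts had 2 markers higher and 0 lower at an unadjusted p below 0.05, and endothelial cells had 1 higher and 2 lower. T or NK cells had 0 higher and 1 lower, hepatocytes had 0 higher and 1 lower, and B or plasma cells had 0 in either direction. Of 9 cartilage cell markers found, only SOX5 passed the filter, and COL2A1 and ACAN, the defining collagen and proteoglycan of cartilage, held at most 3 and 5 counts in any library. SOX5 measured 12.5, 7.03 and 8.11 CPM in CON and 1.53, 3.44 and 28.9 CPM in LPS. The part of cartilage cells in the levels of CRTAC1 and CHI3L2 was not tested.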

How the data were processed

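The authors deposited a table of raw counts for 31908 pig genes, with exon coordinates and length. These counts were not normalized. The submitters' processing notes name cutadapt 1.9.3 and HISAT2, and a chicken and a human but no pig genome build. The sources used here do not give the counting program or its use of strand. The immunoprecipitated libraries were not analysed here.

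Groups followed the sample labels, with 3 libraries each. The labels list 2 sequencing runs for CON replicate 1 and for CON replicate 2, whose counts are in a single column per replicate. Nothing says that CON or LPS libraries came from separate piglets, so p-values measure the spread between libraries. The table held 0 sample columns that could not be mapped, and symbols covered 15029 genes. In R 4.3.3, edgeR 4.0.16 tested 12774 genes kept by filterByExpr (minimum count 10), with TMM factors of 0.735 to 1.11 and quasi-likelihood F tests. The total count of a library was 5927348 to 10351491 in CON and 4348478 to 19967417 in LPS. Counting intervals are 95%, floors are 3 counts, and both cover counting error only. DESeq2 1.42.0, limma 3.58.1 with voom, other scalings and filters, a replicate block and leaving out each library were alternatives. The fits were tested on simulated data.

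The 5 genes and all lists were chosen with earlier results of these data known. Genes named beyond them were listed genes that passed the test and up to 4 others of each list by size of change, the nearest and overlapping genes, the 3 genes most alike, the 5 genes with a symbol on either side of LOXL4 in the ranking, and the comparison genes. No sequences are shown, and genome sequence was not used here. A listed gene that the rule would name is not reported here.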

Additional observations from a re-analysis of the deposited data

How the results depend on the processing

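The number of genes called higher in LPS was 7, and called lower 0. It was 11 and 1 with total counts in place of TMM, 536 and 349 with no filter on low counts, 258 and 146 with DESeq2, and 0 and 0 with at least 10 counts in every library, a filter that tests fewer genes. limma-voom called 2 higher, and RLE size factors 1 lower. Leaving out 1 library gave 0 to 512 higher and 0 to 470 lower, the most in both without LPS replicate 2. The causes were not tested. With the replicate number as a block the counts were 42 and 9. Deviations of libraries of the same number correlated at -0.256, 0.225 and 0.0261, and the labels name no shared litter or day, so the numbers were not taken as pairs.

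The 5 genes kept a positive log2 fold change in 62 of 62 alternatives and a lowest LPS value above the highest CON value in 39 of 39. Both are a description, since the genes were chosen for that separation. Leaving out a library can only keep or raise the ratio of lowest LPS to highest CON value, so those alternatives could not fail. With total counts the log2 fold change of CRTAC1 was at 4.20, its ratio of lowest LPS to highest CON value at 12.6 and that of LOXL4 at 2.85. CRTAC1 was at 4.50 with DESeq2 and 4.04 with limma-voom, and ENSSSCG00000036445 at 6.58 with limma-voom. Leaving out 1 library, log2 fold changes were 4.13 to 4.53 for CRTAC1, 2.19 to 2.62 for LOXL4, 3.18 to 4.28 for PLA2G2D, 6.85 to 7.60 for CHI3L2 and 6.87 to 9.08 for ENSSSCG00000036445. The ratios were then 15.9 to 18.3 for CRTAC1, 3.68 to 5.62 for LOXL4, 5.01 to 14.4 for PLA2G2D, 43.0 to 165 for CHI3L2 and 41.5 to 102 for ENSSSCG00000036445, which has no ratio without CON replicate 1. CHI3L2, CRTAC1 and ENSSSCG00000036445 gave no value with at least 10 counts in every library. LOXL1 turned to -0.25 with limma-voom, -0.058 with the block, -0.20 without CON replicate 2 and -0.47 without LPS replicate 2, and ran up to 0.54 when other libraries were left out. The highest-to-lowest LPS ratio was varied only by leaving out libraries, with TMM scaling kept. With 1 LPS library left out, it was 1.01 to 3.88 for CHI3L2, 1.02 to 1.18 for CRTAC1, 1.02 to 1.05 for LOXL4, 1.05 to 1.91 for PLA2G2D and 1.22 to 3.0 for ENSSSCG00000036445. This alternative was chosen after seeing the data, as were the sum without BATF3 and the ratios against the floor for a count of 0. For 25 named family, matrix, marker, comparison and neighbouring genes, 262 of 320 alternatives kept direction and call. Ranked by Spearman's rho, 2 of the 3 genes most like CHI3L2, 1 of those of PLA2G2D and 0 of those of the other 3 genes stayed among the highest.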

Other observations

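Other genes stood as far above the controls as LOXL4 but were less even. Of the 23, RETN, the hormone resistin made by myeloid cells, measured 0 to 0.268 CPM in CON and 19.2, 2.45 and 68.5 CPM in LPS. TIMP1, an inhibitor of matrix metalloproteinases, measured 16.0 to 32.2 CPM in CON and 578, 175 and 2276 CPM in LPS. SDS, the liver enzyme serine dehydratase, measured 3.40 to 8.60 CPM in CON and 831, 46.0 and 253 CPM in LPS. TGM3, a transglutaminase, measured 0.312 to 5.83 CPM in CON and 247, 50.1 and 683 CPM in LPS. Only 2 of the 23 had a highest-to-lowest LPS ratio of 2 or less, KLHL30 at 1.41 and ADGRG3 at 1.34, and both were near 1 to 4 CPM in the LPS livers. KLHL30 measured 1.31, 1.47 and 1.84 CPM and ADGRG3, an adhesion receptor of granulocytes, 3.92, 3.27 and 2.94 CPM in LPS replicates 1 to 3.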
